A study of Mus musculus with 6 samples.

Results

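Treg cells release a small set of proteins that restrain other immune cells or help tissue heal, and the transcripts of 5 of them, *Il10*, *Ebi3*, *Il12a*, *Fgl2* and *Areg*, are described here out of 37305 genes in an expression table of mouse Treg cells. The 5 genes were taken by name, and each matched 1 row of the table. Polyadenylated RNA of sorted splenic CD4+CD25+ cells was sequenced from C57BL/6 mice of 2 genotypes, with 3 libraries each. In Cd4cre JUNBFl/Fl mice, called *Junb*-deficient here, Cre recombinase made from the *Cd4* promoter removes *Junb*, which encodes 1 of the proteins that pair to form the transcription factor AP-1. In JUNBFl/Fl mice, the controls, the same gene is flanked by loxP sites but no Cre is made. The study's methods describe young adult mice matched for sex and name no treatment for the RNA samples. The *Cd4* promoter is active in the whole alpha-beta T cell lineage, so *Junb* is removed from conventional T cells of the same mice as well. The sorted cells hold central and effector Treg cells together. No source states that the libraries came from separate mice, so p values measure the spread between these samples only.

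IL-10, encoded by *Il10*, is a cytokine that dampens macrophages, dendritic cells and helper T cells, and its loss from Treg cells is known for inflammation at the gut and other surfaces. The products of *Ebi3* and *Il12a* pair to form IL-35, a suppressive cytokine of Treg cells, and each also serves another cytokine, IL-27 for EBI3 and IL-12 for the *Il12a* product p35. FGL2, a member of the fibrinogen-related family, is secreted by activated Treg cells and acts through inhibitory Fc gamma receptors on antigen-presenting cells. AREG (amphiregulin) is a ligand of the EGF receptor that is made as a membrane protein, released by proteolysis, and known for repair of lung and muscle by Treg cells. A transcript level says nothing of how much protein was secreted.

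Levels are FPKM (fragments relative to transcript length and to the size of the library), so they can be compared between genes, but the number of reads behind each is unknown. Their totals were between 496684 and 862049, and 11437 to 11800 genes reached 1 FPKM. *Foxp3*, the lineage factor of Treg cells, was at 153, 130 and 135 FPKM in *Junb*-deficient 1, 2 and 3, against 161, 123 and 115 FPKM in control 1, 2 and 3. *Junb* itself was at 180, 49.1 and 37.8 FPKM in the *Junb*-deficient libraries, against 921, 298 and 256 FPKM in the controls, which is 19.6%, 16.5% and 14.8% of the control of the same number. The libraries numbered 1, 1 of each genotype, stood apart: their sample names carry neither a number nor the lane suffix of the others, and the number 1 is by elimination. Of 15 early genes induced through the T cell receptor, 15 were highest in *Junb*-deficient 1 among the libraries of its genotype and 9 in control 1, with *Nr4a3*, an extreme case, at 253 FPKM in *Junb*-deficient 1 and 126 in control 1, against at most 10.2 in the other 4 libraries. Results are therefore given also without both of them. A further fit, the replicate block, sets each *Junb*-deficient library against the control that shares its number. Deviations from the genotype mean correlated positively within each number. The pairing of numbers 2 and 3 is not borne out further, since *Junb*-deficient 2 correlated with control 3 (0.41) about as with control 2 (0.42). No source states that libraries of the same number belong together. *Junb*-deficient 3 was nearly without RNA of *Ddx3y*, a gene of the Y chromosome (0.00766 FPKM, with 19.3 to 30.6 FPKM in the other 5 libraries). *Xist*, made from an inactive X chromosome, was at 17.9, 0.0239 and 54.0 FPKM in *Junb*-deficient 1, 2 and 3, against 8.30, 0.0145 and 8.35 FPKM in control 1, 2 and 3, so that 3 libraries held RNA of both genes.

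Differences were tested with limma on log2(FPKM + 1) over the 11781 genes with a mean of at least 1 FPKM. This scale understates the change of genes near 1 FPKM. "Rose" and "fell" are used for genes past the thresholds of the study, p under 0.05 before adjustment and a log2 difference beyond 0.5 either way. Of the 4 mediators that could be tested, *Fgl2* fell, *Ebi3* rose, and *Il10* and *Areg* passed in neither direction, while *Il12a* was below the minimum level. Among all genes tested, 1.67% rose and 2.89% fell. The median log2 difference of the 4 was -0.95, beside -0.05 for all genes. In limma, 0 of 11781 genes passed an adjusted p of 0.05, 636 (5.40%) were under 0.05 before adjustment, and the replicate block put 1 gene (0.00849%) past the adjusted threshold. That gene was *Junb* itself (limma adjusted p = 0.0066). In the unpaired fit *Junb* had a log2 difference of -2.55 and limma adjusted p = 0.834. A high adjusted p in this fit therefore does not show that a gene was unchanged.

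*Fgl2* (chromosome 5, 20878460 to 20884192 of mm9, plus strand, 2 exons) was the mediator with the smallest p. It was at 3.98, 7.10 and 7.04 FPKM in *Junb*-deficient 1, 2 and 3, against 32.7, 18.0 and 21.7 FPKM in control 1, 2 and 3. No control came down to the level of any *Junb*-deficient library, a separation found for 6.36% of the genes tested, and the gap was widest within number 1. Means were 6.04 ± 1.79 FPKM in *Junb*-deficient and 24.1 ± 7.64 FPKM in control libraries (SD, n = 3 each), 3.99-fold lower in *Junb*-deficient cells. The log2 difference was -1.83 (SE 0.29, 95% confidence interval -2.51 to -1.15), with adjusted p = 0.340 in limma. The exact permutation test of 3 against 3 gave p = 0.1 (2-sided), the smallest it allows. Within numbers 1, 2 and 3 the level without *Junb* was 12.2%, 39.4% and 32.5% of the control level. Leaving out any single library left *Fgl2* past the thresholds, and without both libraries numbered 1 the log2 difference was -1.36 (limma, adjusted p = 0.0283), a setting under which 2.26% of genes passed the adjusted test. The study named *Fgl2* from these same libraries, so its fall here is not independent evidence. The gene overlaps the *Ccdc146* locus, which runs on the opposite strand and shares no exon with it, and *Ccdc146* was at most at 0.276 FPKM.

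Macrophages also make FGL2, so markers of other cells were set beside it. The summed level of 9 of 10 myeloid markers present in the table was 164, 75.8 and 53.3 FPKM in *Junb*-deficient 1, 2 and 3, against 269, 26.0 and 34.7 FPKM in control 1, 2 and 3. In numbers 2 and 3 most of this sum came from *Fcer1g* and *Tyrobp*, which NK cells express too. The other 7 markers, a split made after the values were seen, summed to 71.3, 5.44 and 9.35 FPKM in *Junb*-deficient 1, 2 and 3, against 92.9, 7.91 and 12.9 FPKM in control 1, 2 and 3. This smaller sum was lower in the *Junb*-deficient library of each number, whereas the full sum was higher there in numbers 2 and 3. Both sums were highest in the libraries numbered 1. Set against the other 4 libraries, those numbered 1 had a log2 difference of 0.000625 in *Fgl2* (SE 0.29, limma adjusted p = 0.999). This value averages opposite shifts in the 2 genotypes. *Fgl2* was highest among controls in control 1 (32.7 FPKM) and lowest among *Junb*-deficient libraries in *Junb*-deficient 1 (3.98 FPKM). The part of myeloid RNA in the *Fgl2* difference between genotypes was not tested. Of these markers, *Cd14* and *S100a8* were listed at 0 in *Junb*-deficient 2, and *S100a9* in *Junb*-deficient 3 and control 2. In a mixture of cells, fewer cells of a type and less RNA per cell cannot be told apart.

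AP-1 dimers bind the letters TGANTCA, and the bases before the start of *Fgl2* are shown because they hold this element. RefSeq windows of the GRCm38.p6 build matched 4 of the 5 genes (*Ebi3*, *Il12a*, *Fgl2* and *Areg*), and the 250 bases upstream of each start were searched on both strands for TGANTCA, for the cAMP response element TGACGTCA, and for the composite elements of AP-1 with IRF4, in which TTTC stands 4 bases before TGANTCA or GAAA directly before it. In the *Fgl2* window (chr5:21372423-21372672, plus strand) the element lies 16 to 10 bases before the start and is in capitals, 5′ to 3′.
Fgl2: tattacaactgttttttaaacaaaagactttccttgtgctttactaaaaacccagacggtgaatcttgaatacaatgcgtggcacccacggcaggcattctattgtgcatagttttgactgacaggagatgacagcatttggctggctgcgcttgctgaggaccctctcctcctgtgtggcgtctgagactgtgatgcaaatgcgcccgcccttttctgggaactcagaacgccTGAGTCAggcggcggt
Of 32851 windows of this length, 6.75% hold TGANTCA. The composite elements are in 0.0974% and 0.1% of windows and in none of those of the 4 mediators. A match is a description of the letters and not of binding.

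*Il10* (chromosome 1, 132916422 to 132921551 of mm9, plus strand, 5 exons) was lower in each *Junb*-deficient library than in the control of its number, and within each genotype it was highest in the library numbered 1. It was at 12.0, 2.77 and 4.28 FPKM in *Junb*-deficient 1, 2 and 3, against 49.6, 9.43 and 8.93 FPKM in control 1, 2 and 3. *Junb*-deficient 1 exceeded control 2 and 3, so the groups overlapped, and control 1 was far above all others. Means were 6.36 ± 4.96 FPKM in *Junb*-deficient and 22.7 ± 23.3 FPKM in control libraries (SD, n = 3 each). The unpaired log2 difference was -1.45 (SE 0.71, 95% confidence interval -3.10 to 0.21), with adjusted p = 0.834 in limma and p = 0.3 in the exact permutation test. Within numbers 1, 2 and 3 the level was 24.2%, 29.4% and 48.0% of the control level. *Il10*, *Fgl2* and *Areg* were lower in the *Junb*-deficient library of every number, as were 22.3% of the genes tested.

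The call for *Il10* changed with the treatment of the libraries numbered 1 and with single libraries. In the replicate block it fell (log2 difference -1.45, limma adjusted p = 0.0812), in a fit that called 7.20% of genes as fallen and 3.58% as risen. Without both libraries numbered 1 it fell too, by 1.19 on the log2 scale (limma adjusted p = 0.0499), where 13.2% of genes fell, 6.74% rose and 2.26% passed the adjusted test. In the unpaired fit it passed the thresholds without *Junb*-deficient 1 (log2 difference -1.96, limma adjusted p = 0.976) or without control 3 (-1.85, adjusted p = 1), and the difference was -0.67 without control 1. Set against the other 4 libraries, those numbered 1 held more *Il10*, by a log2 difference of 1.93 (SE 0.23, limma adjusted p = 0.00236), in a comparison in which 20.5% of genes passed the adjusted test, 8.66% higher and 11.8% lower in the libraries numbered 1. The summed level of 15 early genes induced through the T cell receptor was 2697, 1127 and 886 FPKM in *Junb*-deficient 1, 2 and 3, against 1916, 1284 and 955 FPKM in control 1, 2 and 3. Within each genotype this sum and *Il10* were both highest in the library numbered 1. Across all 6 libraries the sum was highest in *Junb*-deficient 1 and *Il10* in control 1. The summed level of 8 B and plasma cell markers, from cells that can also make IL-10, was 89.2, 29.2 and 34.7 FPKM in the *Junb*-deficient libraries, against 37.4, 27.5 and 32.8 FPKM in the controls, with none of the 8 at 0 in every library. The sum of 7 myeloid markers, without *Fcer1g* and *Tyrobp*, was highest in control 1 and lower in the *Junb*-deficient library of each number, as was *Il10*. The sum of all 9 was also highest in control 1, but was higher in the *Junb*-deficient library of numbers 2 and 3. The part of early genes and other cells in the *Il10* difference was not tested. *Mapkapk2*, the nearest gene that reached 1 FPKM, was at 56.6 ± 22.1 FPKM in *Junb*-deficient and 48.6 ± 22.1 FPKM in control libraries (SD, n = 3 each), with overlap.

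**Figure D1:**
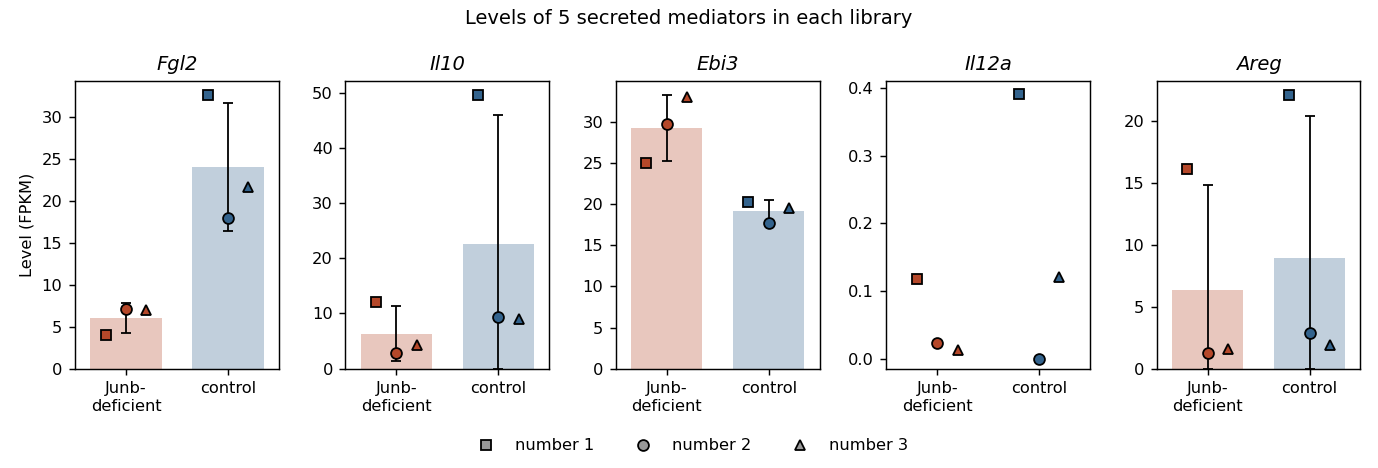
Level of each mediator in FPKM (y axis, linear, a scale of its own for each gene) in *Junb*-deficient libraries (left) and controls (right). Symbols are single libraries by number, bars are means and error bars are SD (n = 3 each, lower end stopped at 0), with no mean drawn for *Il12a*, which is listed at 0 in control 2. *Fgl2* lies between 3.98 and 7.10 FPKM in *Junb*-deficient libraries and at 18.0 FPKM or more in controls, *Ebi3* is separated the other way, and *Il10* and *Areg* are highest in the libraries numbered 1.

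*Ebi3* (chromosome 17, 56092046 to 56096444 of mm9, plus strand, 5 exons) was the mediator that was higher without *Junb*, and the steadiest between libraries of a genotype. It was at 25.0, 29.7 and 33.0 FPKM in *Junb*-deficient 1, 2 and 3, against 20.3, 17.7 and 19.5 FPKM in control 1, 2 and 3. Every *Junb*-deficient library lay above every control, as for 4.58% of genes, with *Junb*-deficient 1 closest to them. Means were 29.2 ± 4.03 FPKM in *Junb*-deficient and 19.2 ± 1.33 FPKM in control libraries (SD, n = 3 each), 1.53-fold higher. The log2 difference was 0.58 (SE 0.17, 95% confidence interval 0.17 to 0.98), with adjusted p = 0.834 in limma and p = 0.1 in the exact permutation test. Within numbers 1, 2 and 3 the level was 123%, 168% and 169% of the control level, and 15.7% of genes were higher in every number. Without *Junb*-deficient 3 the log2 difference was 0.49 (limma adjusted p = 0.933) and the call was lost. This is the library nearly without *Ddx3y* RNA and with the most *Xist*, whose part was not tested. Without both libraries numbered 1 it was 0.72 (limma adjusted p = 0.0579).

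The libraries numbered 1, set against the other 4, had a log2 difference of -0.10 in *Ebi3* (SE 0.16, limma adjusted p = 0.705), beside 1.93 in *Il10*. This too averages opposite shifts, since *Ebi3* was lowest of its genotype in *Junb*-deficient 1 and highest of its genotype in control 1. The long non-coding RNA *Gm16712* overlaps 270 bases of *Ebi3* exons on the opposite strand and was at 1.41 ± 0.858 FPKM in *Junb*-deficient and 1.12 ± 0.884 FPKM in control libraries (SD, n = 3 each). The libraries were made with a kit that keeps strand, but no source used here states whether the counting did, so reads of this overlap may belong to either gene. Antigen-presenting cells also express *Ebi3*. The summed level of 8 dendritic cell markers was 1053, 302 and 267 FPKM in *Junb*-deficient 1, 2 and 3, against 950, 146 and 134 FPKM in control 1, 2 and 3, higher in the *Junb*-deficient library of each number. Of the 6 that could be tested 0 rose and 0 fell, and 3 rose in the replicate block (*Zbtb46*, *Cd74* and *H2-Aa*). *Clec9a* was listed at 0 in *Junb*-deficient 2 and control 3. Most of the dendritic sum came from *Cd74* and *H2-Aa*, at 753 and 259 FPKM in *Junb*-deficient 1. The remaining markers were split in number 1. *Siglech* (19.5 FPKM in *Junb*-deficient 1, 55.8 FPKM in control 1), *Flt3* and *Clec9a* were lower in the *Junb*-deficient library, and *Zbtb46*, *Xcr1* and *Itgax* were higher. In number 2, *Itgax* and *Clec9a* were lower and the others higher in the *Junb*-deficient library. All of them were higher there in number 3, though most values in numbers 2 and 3 were below 1 FPKM. Without both libraries numbered 1, 3 dendritic markers could be tested and 3 rose, beside 6.74% of all genes. Within each number, the dendritic sum and *Ebi3* were both higher in the *Junb*-deficient library. Between numbers, the sum was far higher in the libraries numbered 1, where *Ebi3* was at 25.0 and 20.3 FPKM. The part of these cells in the *Ebi3* difference between genotypes was not tested. The *Ebi3* window (chr17:55952373-55952622 of GRCm38.p6, plus strand) is shown for contrast with that of *Fgl2*, since it holds none of the 4 motifs.
Ebi3: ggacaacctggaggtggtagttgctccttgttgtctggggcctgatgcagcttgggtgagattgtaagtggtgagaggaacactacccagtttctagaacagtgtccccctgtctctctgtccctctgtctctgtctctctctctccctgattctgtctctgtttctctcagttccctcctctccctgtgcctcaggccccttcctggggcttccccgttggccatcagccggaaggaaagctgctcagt

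*Il12a* (chromosome 3, 68494566 to 68502469 of mm9, plus strand, 2 transcripts), the partner of *Ebi3* in IL-35, was close to 0 throughout. It was at 0.118, 0.0225 and 0.0128 FPKM in *Junb*-deficient 1, 2 and 3, against 0.391, 0 and 0.121 FPKM in control 1, 2 and 3. The groups overlapped, since control 2, listed at 0, was below every *Junb*-deficient library. The mean difference on log2(FPKM + 1) was -0.14, and limma gave adjusted p = 0.868 once the filter on low values was dropped. *Il12b*, *Il23a* and *Il27*, the further subunits that *Ebi3* and p35 or their relatives pair with, were at most at 0.467, 0.0466 and 0.129 FPKM. *Ebi3* was thus the single IL-12 family subunit of 5 that reached a mean of 1 FPKM in these cells. Both *Il12a* windows held none of the 4 motifs.

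*Areg* (chromosome 5, 91568641 to 91577458 of mm9, plus strand, 6 exons) differed between the libraries numbered 1 and the rest and was not called between genotypes. It was at 16.1, 1.23 and 1.60 FPKM in *Junb*-deficient 1, 2 and 3, against 22.1, 2.84 and 1.88 FPKM in control 1, 2 and 3. *Junb*-deficient 1 was above control 2 and 3, and only the libraries numbered 1 exceeded 2.84 FPKM. Means were 6.31 ± 8.48 FPKM in *Junb*-deficient and 8.94 ± 11.4 FPKM in control libraries (SD, n = 3 each). The log2 difference was -0.45 (SE 0.997, 95% confidence interval -2.79 to 1.88), with adjusted p = 0.941 in limma and p = 0.5 in the exact permutation test, an interval that takes in large changes in either direction. The replicate block narrowed the interval to -0.96 to 0.05 (limma adjusted p = 0.376). Without both libraries numbered 1, *Areg*, *Il10* and *Fgl2* were lower in each *Junb*-deficient library than in either control, as were 35.7% of genes, and *Ebi3* was higher, as were 21.8%. Within numbers 1, 2 and 3 the level was 72.9%, 43.4% and 85.1% of the control level. Leaving out *Junb*-deficient 2 or control 1 turned the sign (log2 difference 0.07 and 0.48). Against the other 4 libraries, those numbered 1 held more *Areg* by a log2 difference of 2.81 (SE 0.21, limma adjusted p = 0.000341).

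Markers of basophils and mast cells, which also make AREG, were set beside it. *Mcpt8*, *Fcer1a*, *Ms4a2* and *Prss34*, 4 of 6 markers of these cells, were listed at 0 in all 6 libraries, and *Cpa3* was at most at 0.202 FPKM. The summed level of the 6 was 7.79, 7.22 and 5.55 FPKM in *Junb*-deficient 1, 2 and 3, against 7.84, 1.40 and 1.61 FPKM in control 1, 2 and 3, nearly all of it *Kit*, a receptor of other cells too. In the controls this sum and *Areg* were both highest in control 1, while *Junb*-deficient 2 had a sum close to that of *Junb*-deficient 1 and the least *Areg*. *Kit* rose in the replicate block and without both libraries numbered 1 but not in the unpaired fit. The sum of 7 myeloid markers, without *Fcer1g* and *Tyrobp*, had a pattern closer to that of *Areg*. It was 92.9 FPKM in control 1, 71.3 in *Junb*-deficient 1 and at most 12.9 elsewhere. Within each number it was lower in the *Junb*-deficient library, as was *Areg*. From control 2 to control 3 this sum was higher and *Areg* lower. The sum of all 9 was higher without *Junb* in numbers 2 and 3. The part of basophils, mast cells and myeloid cells in the *Areg* values was not tested. The neighbouring gene *Ereg*, of the same family of ligands, was listed at 0 in every library. The *Areg* window (chr5:91139349-91139598 of GRCm38.p6, plus strand) is shown because it holds the cAMP response element, which lies 61 to 54 bases before the start, is in capitals, and occurs in 1.55% of windows.
Areg: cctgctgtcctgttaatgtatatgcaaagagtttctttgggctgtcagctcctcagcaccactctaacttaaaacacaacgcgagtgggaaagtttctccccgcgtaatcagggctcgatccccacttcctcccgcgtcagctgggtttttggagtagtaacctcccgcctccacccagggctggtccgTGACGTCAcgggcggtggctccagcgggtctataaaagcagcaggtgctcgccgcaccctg

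**Figure D2:**
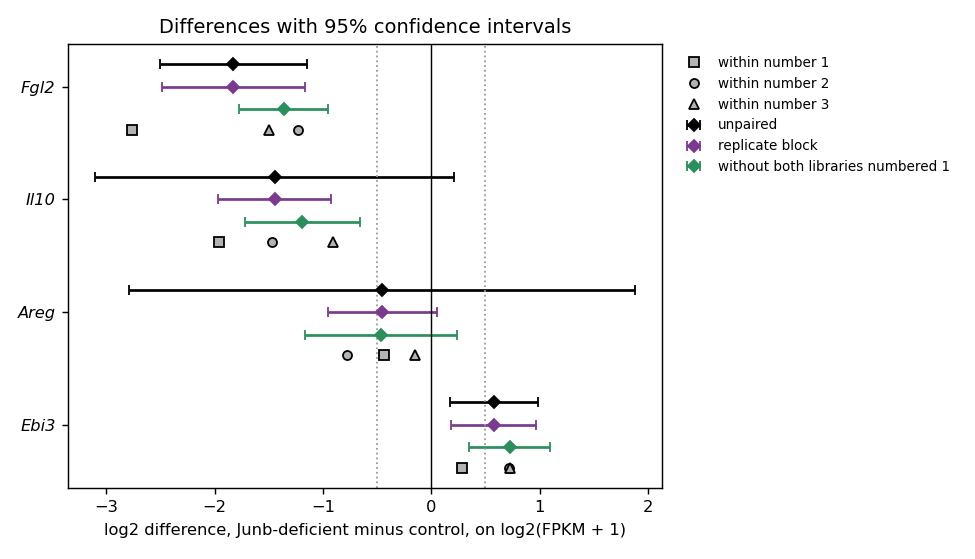
log2 difference of *Junb*-deficient minus control (x axis, on log2(FPKM + 1)) for the 4 mediators tested. Diamonds with bars are limma estimates with 95% confidence intervals from the unpaired fit, the replicate block, and without both libraries numbered 1; grey symbols are the differences within each number, and dotted lines mark 0.5 in either direction. The *Il10* interval spans 0 in the unpaired fit (-3.10 to 0.21) and lies below 0 in the other fits, while *Fgl2* and *Ebi3* lie on opposite sides of 0 in all 3.

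The order of the 5 levels differed between genotypes. In *Junb*-deficient libraries *Ebi3* was the highest of the 5 in each, and the means of *Il10*, *Areg* and *Fgl2* (6.36, 6.31 and 6.04 FPKM) did not differ beyond their spread. In controls the means of *Fgl2*, *Il10* and *Ebi3* (24.1, 22.7 and 19.2 FPKM) did not differ beyond their spread either, and *Fgl2* was the highest in control 2 and 3, just above *Ebi3*, and *Il10* in control 1. *Areg* followed in controls with a mean of 8.94 FPKM, and *Il12a* was last in every library. The sum of the 5 was 57.2, 40.8 and 46.0 FPKM in *Junb*-deficient 1, 2 and 3, against 125, 48.0 and 52.1 FPKM in control 1, 2 and 3. Of this sum, *Ebi3* made up 43.7%, 72.7% and 71.9% in the *Junb*-deficient libraries, against 16.2%, 36.9% and 37.4% in the controls. *Fgl2* made up 6.95%, 17.4% and 15.3% in the *Junb*-deficient libraries, against 26.1%, 37.5% and 41.6% in the controls. Neither share overlapped between the genotypes. Shares of 1 sum are bound to each other, so lower *Fgl2* or *Il10* raises the share of *Ebi3*. The mean level of *Ebi3* itself was 1.53-fold higher in *Junb*-deficient libraries, and 1.23-fold within number 1. *Il10* made up 21.0%, 6.79% and 9.32% in the *Junb*-deficient libraries, against 39.7%, 19.7% and 17.1% in the controls, and here *Junb*-deficient 1 exceeded control 2 and 3.

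**Figure D3:**
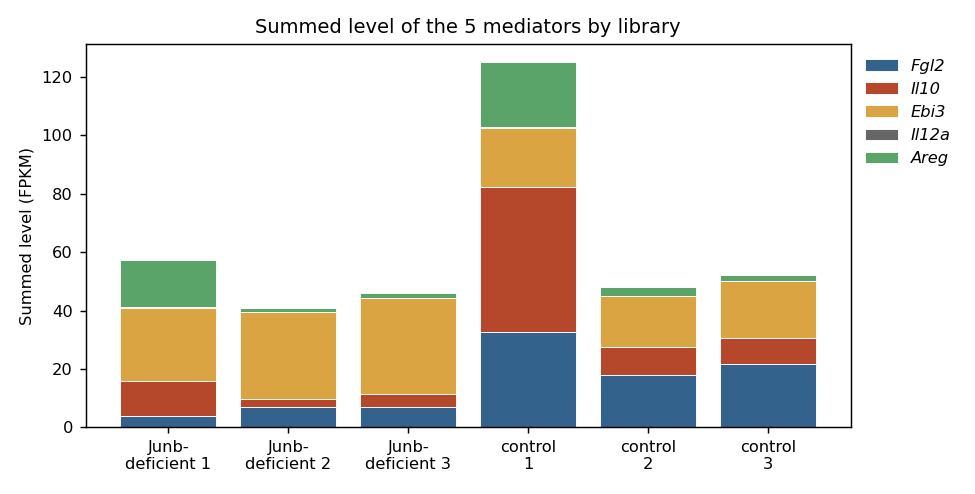
Summed level of the 5 mediators in FPKM (y axis) in each library, stacked by gene, with *Junb*-deficient libraries at left and controls at right. *Ebi3* is the largest block in every *Junb*-deficient library (43.7% to 72.7% of the sum), control 1 stands out with 125 FPKM, and *Il12a* is too low to be seen.

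Across the 6 libraries the mediators did not share a common pattern. The Pearson correlation of log2(FPKM + 1) was 0.86 between *Il10* and *Areg*, 0.62 between *Il10* and *Fgl2*, 0.15 between *Fgl2* and *Areg*, and -0.74 between *Ebi3* and *Fgl2*. These describe 6 points that include both genotypes and the libraries numbered 1. Among 1283 genes with a mean of at least 5 FPKM and an SD of at least 0.5, those most like *Fgl2* were *Acsbg1*, an acyl-CoA synthetase (r = 0.990), the glycosyltransferase gene *Galnt2* (0.988) and the calcium-binding protein gene *S100a6* (0.988). Most like *Il10* were the linker histone gene *Hist1h1c* (0.992), the kinase gene *Map2k3* (0.992) and the lipid-transfer protein gene *Gm2a* (0.982). Most like *Areg* were *Zfp622* (0.994), *Alox5ap*, which serves leukotriene synthesis (0.994), and the aminotransferase gene *Got1* (0.993). *Ebi3* had less close companions, in *Atxn2* (0.918), the chemokine receptor gene *Ccr6* (0.891) and *Tcrg-C* (0.888), a name that marks a constant segment of the gamma T cell receptor and whose reads may be shared with its close copies.

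The relatives of the mediators were mostly at or near 0. Of 5 IL-10 family cytokines, 4 were below 1 FPKM in every library and 2 of these (*Il19* and *Il20*) at 0 throughout. *Il22*, which guards epithelia, reached 0.485 FPKM at most. Of 7 ligands of the EGF receptor, *Areg* and *Hbegf* reached a mean of 1 FPKM, and *Hbegf* was at 1.20, 0.843 and 2.53 FPKM in *Junb*-deficient 1, 2 and 3, against 1.11, 1.21 and 1.55 FPKM in control 1, 2 and 3, with overlap (log2 difference 0.09). Of 5 fibrinogen-related genes, *Fgl2* alone was tested, and *Fgl1*, *Fgb* and *Fgg* were listed at 0 in all libraries. The 4 genes that release amphiregulin from the membrane were expressed and 0 of them rose or fell (median log2 difference -0.10). Its main sheddase *Adam17* was at 31.1, 22.5 and 33.1 FPKM in *Junb*-deficient libraries, against 27.7, 23.2 and 26.9 FPKM in controls (log2 difference 0.14). *Adam10*, a further sheddase, had a log2 difference of -0.11 and the iRhom gene *Rhbdf1* one of -0.36.

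Receptors for the mediators were next compared, since Treg cells themselves respond to IL-10. Of 9 receptor genes 7 were tested, 0 rose and 0 fell, and their median log2 difference was 0.08. *Il6st*, which encodes the gp130 chain, was at 51.8, 44.3 and 42.6 FPKM in *Junb*-deficient 1, 2 and 3, against 32.7, 39.3 and 34.8 FPKM in control 1, 2 and 3, without overlap (log2 difference 0.37, limma adjusted p = 0.834). *Il10ra*, the ligand-binding chain for IL-10, was at 30.1, 27.7 and 28.6 FPKM in *Junb*-deficient libraries, against 34.3, 35.4 and 31.0 FPKM in controls, also without overlap (log2 difference -0.21, limma adjusted p = 0.842). Of all genes tested, 4.58% were higher and 6.36% lower in *Junb*-deficient libraries without overlap. *Il12rb2* had a log2 difference of 0.58 with overlap (limma adjusted p = 0.839). *Egfr*, the receptor of AREG, was below 1 FPKM in every library.

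Transcription factors known to act on *Il10* in T cells moved in both directions. Of 12 tested, 1 rose and 2 fell (median log2 difference 0.11), beside 1.67% and 2.89% of all genes. In the replicate block 2 rose (*Stat3* and *Batf*) and 3 fell (*Maf*, *Prdm1* and *Nfil3*), beside 3.58% and 7.20% of all genes. *Maf*, an activator of *Il10*, was at 17.4, 19.6 and 25.5 FPKM in *Junb*-deficient 1, 2 and 3, against 53.9, 47.5 and 45.9 FPKM in control 1, 2 and 3. *Maf* fell without overlap by 1.21 on the log2 scale (limma adjusted p = 0.340), and the study named it from these libraries. A lower level without overlap was found for 6.36% of the genes tested. *Prdm1*, which encodes Blimp-1, was at 4.20, 4.33 and 5.97 FPKM in *Junb*-deficient libraries, against 14.9, 7.38 and 6.37 FPKM in controls. It fell with a log2 difference of -0.78 (limma adjusted p = 0.834), which was -0.37 without both libraries numbered 1, and the call was then lost. In the study's own comparison of these libraries *Prdm1* was counted as dependent on BATF and not on JunB, unlike the call here. *Stat3*, a signal transducer of several cytokines including IL-10, rose with overlap (log2 difference 0.66, limma adjusted p = 0.834). *Batf* was at 96.0, 191 and 179 FPKM in *Junb*-deficient libraries, against 73.0, 98.7 and 145 FPKM in controls, with overlap. It rose in the replicate block (limma adjusted p = 0.275) and without both libraries numbered 1 (log2 difference 0.62), but not in the unpaired fit (limma adjusted p = 0.839). *Nfil3* was at 32.2, 4.69 and 5.56 FPKM in *Junb*-deficient libraries, against 58.8, 13.4 and 12.0 FPKM in controls, and fell in the replicate block (limma adjusted p = 0.0870) but not in the unpaired fit (limma adjusted p = 0.848). Its values are high in the libraries numbered 1, as those of *Il10* are.

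Among other suppressive molecules of Treg cells, a list chosen with earlier results of these data known, more genes fell than rose. The same holds over all genes tested (340 fell and 197 rose). Of 14 tested, 1 rose and 6 fell (median log2 difference -0.59), and 1 rose and 8 fell in the replicate block. Over all genes 1.67% rose and 2.89% fell, and 3.58% and 7.20% did in the replicate block. Those that fell were *Gzmb*, the protease granzyme B (log2 difference -3.43), the co-inhibitory receptor genes *Tigit* (-1.59), *Ctla4* (-0.70) and *Pdcd1* (-0.56), *Lgals1*, which encodes galectin-1 (-1.28), and the enkephalin gene *Penk* (-0.61). The study named *Gzmb*, *Tigit* and *Ctla4* from these libraries. *Lrrc32*, whose product GARP displays latent TGF-beta on the Treg cell surface, rose, and was at 77.1, 61.2 and 58.4 FPKM in *Junb*-deficient libraries, against 41.3, 39.2 and 39.6 FPKM in controls (log2 difference 0.69, limma adjusted p = 0.834). *Tgfb1* itself had a log2 difference of -0.01 with overlap. Like *Ebi3*, *Lrrc32* was higher in all 3 *Junb*-deficient libraries than in any control, as were 4.58% of genes.

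Of 12 genes typical of tissue-repair Treg cells, *Areg* among them, 0 rose and 4 fell (median log2 difference -0.59), beside 1.67% and 2.89% of all genes. In the replicate block 1 rose (*Batf*) and 6 fell, beside 3.58% and 7.20% of all genes. *Klrg1*, a marker of late effector cells (log2 difference -1.39), *Il1r2*, a decoy receptor for IL-1 (-0.91), *Pparg*, a nuclear receptor of fat-resident Treg cells (-0.90), and *Penk* fell. *Klrg1* was named by the study from these libraries, and *Gata3*, *Batf*, *Nfil3* and *Penk* stand in the other lists as well. *Il1rl1*, the IL-33 receptor ST2 through which *Areg* can be induced, was at 8.83, 10.3 and 8.25 FPKM in *Junb*-deficient 1, 2 and 3, against 46.0, 7.57 and 9.62 FPKM in control 1, 2 and 3, with overlap. Its level stood out in control 1. Of the 15 early genes induced through the T cell receptor, 1 rose (*Egr3*, log2 difference 0.86, limma adjusted p = 0.834) and 0 fell (median log2 difference 0.10), and 2 rose in the replicate block (*Egr3* and *Nr4a3*). *Cd69* and *Myc* followed with log2 differences of -0.34 and 0.16, and *Cd69* fell without both libraries numbered 1 (-0.58).

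**Figure D4:**
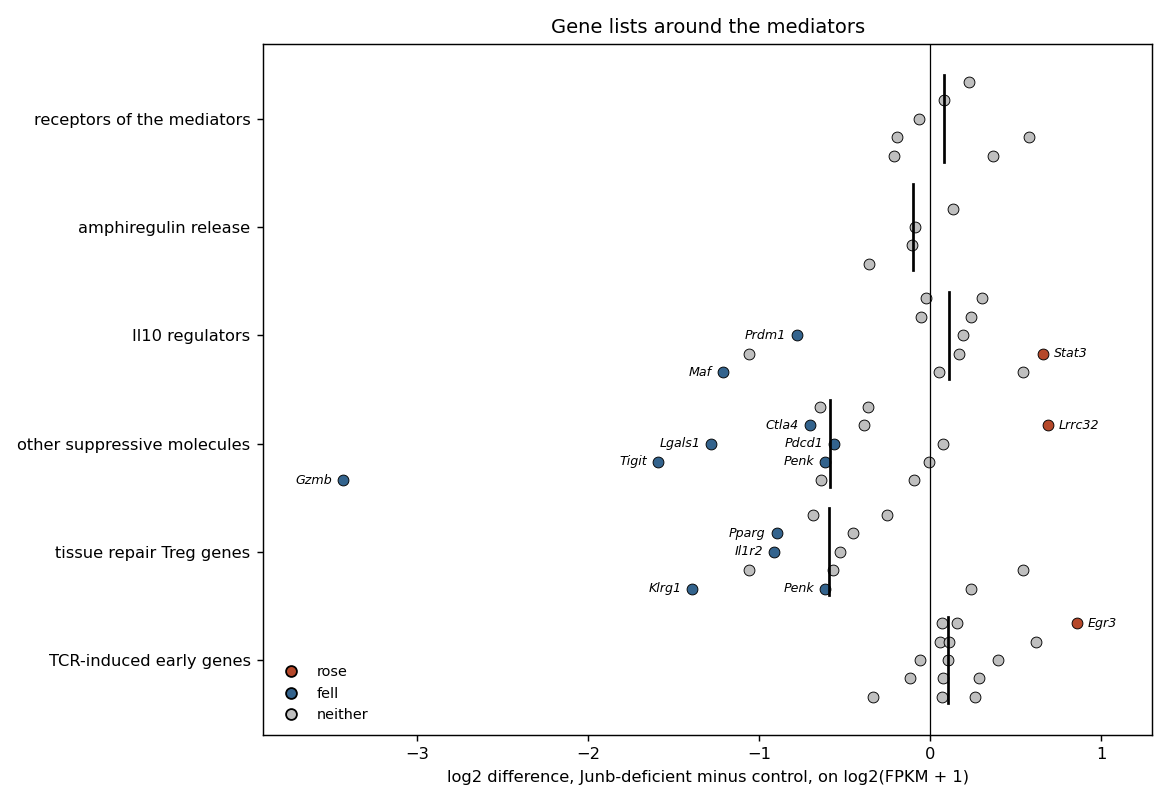
log2 difference of *Junb*-deficient minus control (x axis, on log2(FPKM + 1)) for the tested genes of 6 lists (rows); each point is a gene, its height within a row has no meaning, and the vertical bars are list medians. Genes that rose or fell are coloured and named, from *Gzmb* at -3.43 to *Egr3* at 0.86, and the receptor and amphiregulin-release rows hold none.

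The labelled cell type was checked against its defining genes, which were present in all 6 libraries. Among 8 Treg and CD4 T cell genes 0 rose and 2 fell (*Ctla4* and *Capg*, an actin-capping protein gene), beside 1.67% and 2.89% of all genes. The summed level of the 8 was 1311 to 1477 FPKM in *Junb*-deficient libraries, against 1643 to 1779 FPKM in controls, without overlap. This sum includes *Ctla4* (mean 161 against 261 FPKM) and *Capg* (142 against 254 FPKM). Of the others, *Foxp3*, *Il2ra* and *Cd4* had higher means in *Junb*-deficient libraries. *Ikzf2*, *Tnfrsf18* and *Cd3e* had lower means there, and none of these passed the thresholds. *Ikzf2*, which encodes Helios, had a log2 difference of -0.23. In the unpaired fit 0 of 8 myeloid markers rose or fell (median log2 difference -0.24), as did 0 of 8 B and plasma cell markers (0.37), with the highest sums of each genotype in its library numbered 1. Those with the smallest p were *Fcer1g* (log2 difference 0.61), *Itgam* (-0.48) and *Tyrobp* (0.64) among the myeloid markers, and *Ebf1* (0.78), *Cd79a* (0.80) and *Igj* (0.80) among those of B and plasma cells. *Ebf1* and *Cd79a* rose in the replicate block. Without both libraries numbered 1, *Fcer1g* (1.40, limma adjusted p = 0.0383) and *Tyrobp* (1.39, limma adjusted p = 0.0379) rose and *Cd68*, a lysosomal protein gene of macrophages, fell (-0.57).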

How the data were processed

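The authors deposited FPKM per gene from libraries of a strand-specific kit. The submitters' processing notes name TopHat2, Cufflinks and the mm9 build. How strand and reads with several matches were counted is not stated. All 37305 identifiers were found in the GENCODE annotation of this build, which gave positions. The columns of libraries numbered 1 were assigned by elimination. No pair of libraries was identical (0 pairs). The files hold no counts, so no counting intervals are given.

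Genes with a mean of at least 1 FPKM (11781) were log2-transformed after adding 1 and fitted in R 4.3.3 by limma 3.58.1 (mean-variance trend, 2-sided, Benjamini-Hochberg adjustment over all genes tested), as *Junb*-deficient minus control. The script was tested on simulated data. An exact permutation test of 3 against 3 libraries has 20 assignments and cannot go below 0.1. Python 3.11.15 with pandas 2.3.3, numpy 2.4.6 and scipy 1.17.1 made the tables, and matplotlib 3.10.9 the figures.

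Across genes, deviations from the genotype mean correlated by 0.57, 0.42 and 0.24 within numbers 1, 2 and 3, and by -0.53 to 0.41 otherwise. Every pair of the same number was above 0.1, so the block is given where it changes a list count or the call of a mediator. The value of 0.41 was between *Junb*-deficient 2 and control 3, above the 0.24 within number 3. The alternatives were the block, a term for the lane suffix, both libraries numbered 1 left out, each library left out, a pseudocount of 0.1, no filter, a mean of at least 5 FPKM, median-ratio and quantile scaling, no trend, and a correction for exon length (loess, span 0.5).

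The 5 genes and all lists were chosen with earlier results of these data known. Besides the 5 genes and *Junb*, the text names, from each list, genes past the study's thresholds and those with the smallest p, and for each mediator tested the 3 genes with the highest Pearson correlation. Further genes (relatives, list members at or near 0, *Nr4a3*, *Nfil3*, *Batf*, *Ddx3y* and neighbours) were named after their values were seen.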

Additional observations from a re-analysis of the deposited data

How the results depend on the processing

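Under the 10 alternatives besides leaving out a library, *Fgl2* (log2 difference -1.98 to -1.36), *Ebi3* (0.58 to 0.80) and *Areg* (-0.60 to -0.24) kept direction and call in all 10, and *Il10* (-1.60 to -1.19) in 7. *Il10* passed the thresholds in the replicate block (-1.45), with a term for the lane suffix (-1.45) and without both libraries numbered 1 (-1.19). With a pseudocount of 0.1 the untested difference of *Il12a* was -0.62, since low values then weigh more. Leaving out single libraries gave -2.01 to -1.59 for *Fgl2*, -1.96 to -0.67 for *Il10*, 0.49 to 0.68 for *Ebi3*, -1.40 to 0.48 for *Areg* (0.07 without *Junb*-deficient 2, 0.48 without control 1) and -0.25 to -0.01 for *Il12a*. Adjusted p values in limma ranged from 0.0283 to 1 for *Fgl2*, 0.0499 to 1 for *Il10*, 0.0579 to 1 for *Ebi3* and 0.28 to 1 for *Areg*.

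Of all genes, 340 fell and 197 rose. The numbers were 848 and 422 in the replicate block, 840 and 415 with the lane suffix term, and 1528 and 780 without both libraries numbered 1. With a mean of at least 5 FPKM 131 rose. Leaving out single libraries gave 204 to 1532 that fell and 95 to 788 that rose, the highest without control 1 and the lowest without control 3. The cause of these shifts was not tested, and the number of reads, which limits genes as low as *Il12a*, is unknown.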

Other observations

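Cytokines and receptors of conventional helper T cells were read beside the mediators. Of 8 such genes 4 were tested and 0 rose or fell (median log2 difference 0.11). *Ifng*, the type 1 cytokine, was at 18.8, 10.8 and 12.5 FPKM in *Junb*-deficient 1, 2 and 3, against 20.4, 14.3 and 18.1 FPKM in control 1, 2 and 3, with overlap. *Il4*, the type 2 cytokine, was at 2.66, 4.86 and 11.0 FPKM in *Junb*-deficient libraries, against 1.27, 4.95 and 11.0 FPKM in controls, following the number rather than the genotype. *Cd40lg*, the CD40 ligand, had a log2 difference of 0.36. *Il17a* was at most at 0.559 FPKM. Of 6 CD8 T and NK cell markers 5 were tested and 0 rose or fell (median log2 difference 0.22), with *Ncr1* at 0.47, *Klrb1c* at 0.38 and *Cd8a* at -0.31.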
